A study of Mus musculus with 2 samples.

Results

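The 10 genes described here are transcription factors and markers of the mouse trophoblast, the lineage that builds the placenta: Cdx2, Tfap2c, Elf5, Ets2, Plac1, Esx1, Ascl2, Plet1, Krt7 and Tpbpa. They were chosen by name, as every probe that is not a control on either array and whose gene name is 1 of these symbols or an older or newer form of it. Tfap2c is called Tcfap2c on the array, and Plet1 is called 1600029D21Rik. The rule gave 12 probes for the 10 genes, out of 19505 named genes on the array. On at least 1 array, 14967 of those genes were well above background, 9 of the 10 among them.

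RNA came from R1, an established mouse embryonic stem (ES) cell line, and no genetic change or transgene is named for it in the labels. Embryoid body cells, which grow as floating aggregates, were taken at day 6 of a direct neural differentiation and are also described as neural precursors. ES cells (day 0) had been kept on a layer of non-dividing fibroblasts with serum and leukaemia inhibitory factor (LIF). The medium of day 6 and the removal of the fibroblasts before RNA extraction are not stated in the sources used here, so medium, fibroblasts, aggregation and differentiation cannot be told apart. Each day had 1 one-colour Agilent array of total RNA. No difference below therefore has a replicate check, no test between the days was possible, and every value describes these 2 RNA samples.

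The first split of the embryo separates the trophectoderm, which becomes the trophoblast, from the inner cell mass, from which ES cells are derived. Cdx2, Tfap2c, Elf5 and Ets2 encode transcription factors that keep trophoblast stem cells in their state, and the pluripotency factor Pou5f1 (Oct4) represses this programme in the inner cell mass. Later the trophoblast forms giant cells, the spongiotrophoblast, which Tpbpa marks, and the labyrinth, where nutrients are exchanged. Several of the genes are active elsewhere too. Cdx2 is also a gene of the caudal embryo and the gut, Tfap2c of primordial germ cells, Ets2 of many tissues and Krt7 of simple epithelia.

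The 2 arrays were alike in brightness: 26896 gene probes (65.3%) were well above background on day 6 and 25246 (61.3%) on day 0. The 75th percentile of intensity, to which each array was scaled, was 4371 array units on day 6 and 3746 on day 0. As a check of the day labels, 6 of 7 genes of neural progenitors were higher on day 6 by 2-fold or more, and 9 of 9 measured pluripotency genes were lower by that much. The only error available for a single probe is that of the scanner software, given below as the SD of a log2 difference after the sign ±. It had a median of 0.20 over all genes and does not hold the variation between cultures. Where a probe was well above background on 1 array only, the difference is a bound and is written "at least". The exceptions are dim values over their array's lowest signal well above background, where the plain difference is given. The lowest signal well above background was 85.15 array units on day 6 and 102.3 on day 0.

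Each probe is a single strand of 60 bases, and what it reports depends on which transcript holds that stretch. The probes of the members with the largest differences are shown first. Both probes of Plet1 and of Krt7 are shown because their positions differ, and the probe of Tpbpb because this gene is the nearest relative of Tpbpa on the array. All are written 5′ to 3′ in lower case, with positions in the mouse build mm7 as the scanner files give them.
Cdx2, chr5:146195375-146195434, minus strand: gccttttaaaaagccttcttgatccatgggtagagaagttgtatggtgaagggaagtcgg
Tfap2c, chr2:172351014-172351073, plus strand: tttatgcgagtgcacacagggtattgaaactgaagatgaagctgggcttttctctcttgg
Esx1, chrX:131834651-131834710, minus strand: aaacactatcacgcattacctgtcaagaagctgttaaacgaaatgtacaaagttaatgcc
Plet1 probe 1, chr9:50483584-50483643, plus strand: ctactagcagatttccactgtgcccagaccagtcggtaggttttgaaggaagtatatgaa
Plet1 probe 2, chr9:50477771-50477830, plus strand: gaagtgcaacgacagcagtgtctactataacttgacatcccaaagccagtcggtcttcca
Krt7 probe 1, chr15:101413898-101413957, plus strand: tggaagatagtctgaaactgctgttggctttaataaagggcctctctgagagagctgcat
Krt7 probe 2, chr15:101409444-101409503, plus strand: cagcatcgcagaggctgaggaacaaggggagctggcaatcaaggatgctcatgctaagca
Tpbpa, chr13:60046780-60046839, minus strand: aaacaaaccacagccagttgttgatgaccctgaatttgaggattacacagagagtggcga
Tpbpb, chr13:60008811-60008870, minus strand: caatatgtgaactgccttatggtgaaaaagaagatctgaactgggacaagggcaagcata

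The longest run of bases that a member probe shared with a probe of any other gene was 12 to 16, the highest being 16 bases shared between the Ets2 and Gata6 probes. The probes of Tpbpa and Tpbpb shared no run over 5 bases, and at most 22 of their 60 bases matched when aligned without gaps. The probes of the other 4 members lie at chr2:103301588-103301647 on the plus strand for Elf5, chr16:96027208-96027267 on the plus strand for Ets2, chrX:48162756-48162815 on the minus strand for Plac1 and chr7:139395814-139395873 on the minus strand for Ascl2. Whether each probe lies in a coding or an untranslated exon was not analysed here. Every member probe was a single spot, and none was marked as an outlier or as saturated on either array.

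Of the 4 stem cell factors, Cdx2 and Tfap2c were far lower in the day 6 embryoid bodies than in the day 0 ES cells, Ets2 differed little, and Elf5 was measured on neither array. Cdx2 (NM_007673), a homeobox factor of the trophectoderm, had an intensity of 17.3 array units on day 6, a surrogate value not above background, against 3491 on day 0. It was at least 47.8-fold lower on day 6, and 0.508% of all measured genes had a difference as low or lower. The Cdx2 signal was thus present in ES cells kept with LIF on fibroblasts and below the measurable range in the embryoid bodies.

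Tfap2c (NM_009335), an AP-2 factor of the trophectoderm and of germ cells, had 1269 array units on day 6 and 20939 on day 0. Its log2 difference was -4.27 ± 0.21, which is 19.3-fold lower on day 6. It was measured on both arrays, so this value is no bound, and 1.56% of measured genes had a difference as low or lower. Ets2 (NM_011809), a factor downstream of fibroblast growth factor signalling in trophoblast stem cells, had 3864 array units on day 6 and 4290 on day 0. Its log2 difference of -0.37 ± 0.20 was under 2-fold. Elf5 (NM_010125), which holds the trophoblast state in place and is methylated in ES cells, had 54.4 array units on day 6 and 71.9 on day 0. Both values were not well above background, so no fold is given.

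The 3 placental regulators Esx1, Plac1 and Ascl2 were well above background in ES cells and not in embryoid bodies. Esx1 (NM_007957), an X-linked homeobox gene of the labyrinth, had 78.8 array units on day 6 and 1045 on day 0, and was at least 14.3-fold lower on day 6. Plac1 (NM_019538), an X-linked gene for a secreted placental protein, had 69.7 on day 6 and 181 on day 0, at least 2.48-fold lower. Ascl2 (NM_008554), an imprinted basic helix-loop-helix factor needed for the spongiotrophoblast, had 105 on day 6 and 199 on day 0, 2.20-fold lower. This is a plain difference (log2 difference -1.14 ± 0.42) and no lower limit, and its software error reaches under 2-fold. Esx1 therefore stood far apart from the other two, whose day 0 signals were close to the measurable limit of 102.3 array units. With normexp background correction the Plac1 and Ascl2 differences were -0.83 and -0.70 log2 units, and with no background subtraction their bounds were -0.74 and -0.66, all under 2-fold.

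The epithelial genes Plet1 and Krt7 behaved differently from each other. Plet1 (NM_029639) encodes a surface protein of the extraembryonic ectoderm and of trophoblast progenitors. Its probe 1 had 853 array units on day 6 and 2686 on day 0, and was 3.67-fold lower on day 6 (log2 difference -1.88 ± 0.21). Its probe 2, at a different position on the same strand, had 76.7 on day 6, not well above background, and 323 on day 0, at least 4.42-fold lower. Both Plet1 probes thus gave a lower signal on day 6.

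Krt7 encodes a type II keratin found throughout the trophoblast and used to recognise it. Its probe 1 (AK137217) had 7074 array units on day 6 and 5101 on day 0 (log2 difference 0.25 ± 0.20). Its probe 2 (NM_033073) had 837 on day 6 and 630 on day 0 (log2 difference 0.19 ± 0.21). Both probes were well above background on both arrays, and neither difference came near 2-fold.

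Tpbpa (NM_009411), the marker of the spongiotrophoblast and its precursors, was the only member at least 2-fold higher on day 6. Its intensity was 984 array units on day 6 and 23.8 on day 0, the second a surrogate value not above background, so it was at least 8.25-fold higher on day 6. Before background subtraction the mean signal of the spot was 1057 on day 6 and 101 on day 0, over a local background of 68 on both arrays. The day 6 spot had a median pixel signal of 1015.5 with a pixel SD of 169, so the mean and median of the spot were close. Of all measured genes, 2.89% had a difference as high or higher. The spot is the only one for this gene, and no second probe was available to check it.

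**Figure D1:**
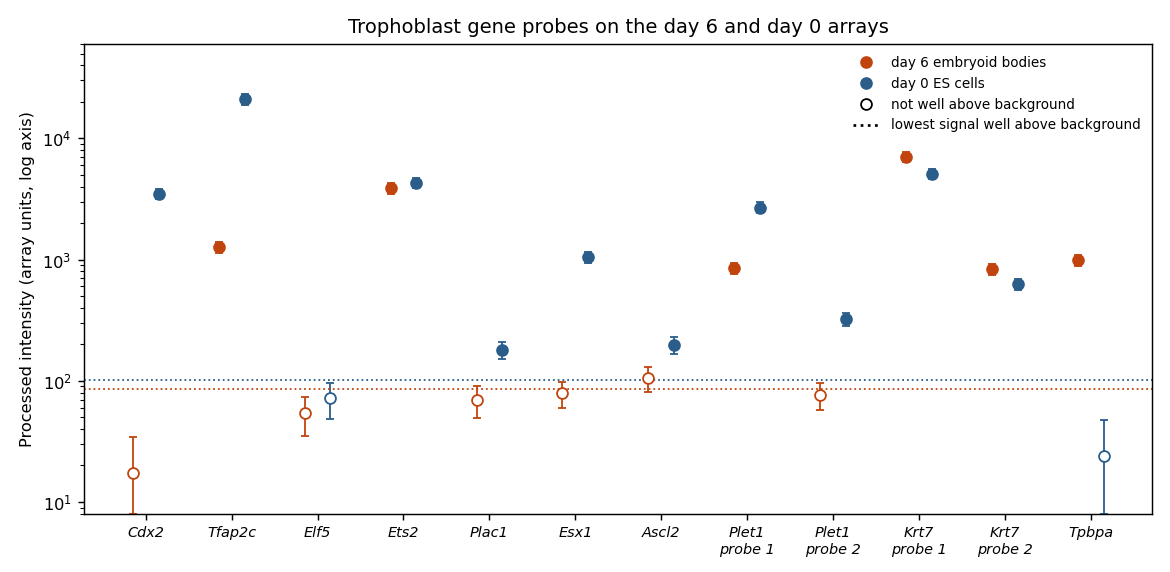
Processed intensity of each of the 12 probes on a log axis, with the day 6 array in orange and the day 0 array in blue. Open points are not well above background, bars are the software error of the intensity (stopped at the lower edge of the plot), and dotted lines mark the lowest signal well above background. Tpbpa has its filled point on day 6 only, Cdx2, Plac1, Esx1, Ascl2 and Plet1 probe 2 on day 0 only, and Elf5 on neither array.

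The plot of intensities by probe shows 5 probes measured on both arrays, 5 on day 0 only, 1 on day 6 only and 1 on neither. By gene, 6 of the 10 were at least 2-fold lower on day 6, 1 was higher, 2 were within 2-fold and 1 was not measured. Over all 14967 measured genes, the shares past 2-fold were 20.0% lower and 17.8% higher. At 4-fold, Cdx2, Tfap2c and Esx1 were lower and Tpbpa was higher, where 8.35% of all genes were lower and 7.36% higher. These member counts are a description, because 5 of the 9 measured members passed the filter through 1 array only, which favours a difference in that direction. The median of the 9 was -1.60 log2 units, or -1.31 with dim members at their bound, against -0.09 over all measured genes. Of the 4 measured on both arrays, Tfap2c and Plet1 were at least 2-fold lower, and Ets2 and Krt7 were within 2-fold. In bulk RNA, fewer cells of a type and less RNA per cell cannot be told apart.

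Genes with the same roles were set beside the members through 5 lists of other trophoblast genes. Of 45 listed genes, 42 were on the array and 34 were measured. In these 34, 20 were lower on day 6 by 2-fold or more, 3 were higher and 11 were within 2-fold, with a median log2 difference of -1.88, or -1.54 with dim genes at their bound. Among all measured genes, 20.0% were lower and 17.8% higher, the shares to set beside the list counts below as well. Of the 34, 4 were measured on day 6 only and 3 on day 0 only, which favours a difference in that direction.

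The stem cell regulators were split. Of 12 measured genes, 7 were lower on day 6 by 2-fold or more and 1 was higher. Eomes, a T-box factor that works with Cdx2, had 417 array units on day 6 and 1967 on day 0 (log2 difference -2.46 ± 0.22). Tead4, which switches on Cdx2 in the outer cells of the embryo, had 181 on day 6 and 1196 on day 0 (-2.95 ± 0.25). Hand1, a factor of giant cells and of mesoderm, was at least 13.4-fold lower. Bmp4, a signal sent by the extraembryonic ectoderm and made elsewhere too, was 11.2-fold lower, and Tbx3, which is also a pluripotency gene, was 7.63-fold lower.

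Other regulators on the same list differed less. Gata3, a trophectoderm factor that is also made in neurons and other tissues, had 2465 array units on day 6 and 1076 on day 0, just under 2-fold (log2 difference 0.97 ± 0.21). Gata2 had a log2 difference of 0.56 from the probe with the highest mean log2 intensity over both arrays, whose value each gene takes here. Another Gata2 probe gave 1.04, past 2-fold. Fgfr2, the receptor for the growth factor that maintains trophoblast stem cells, was 2.05-fold higher on day 6, with log2 differences of 1.07 and 0.21 from its other probes. Yap1 and Id2 were within 2-fold. Tfap2a and Msx2 were 2.74-fold and 2.41-fold lower.

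Trophectoderm surface and keratin genes were mostly lower: 6 of 7 by at least 2-fold, with a median of -2.15. Aqp3, a channel for water and glycerol, had 173 array units on day 6 and 9281 on day 0, 62.6-fold lower on day 6. Lgals3 (galectin-3) was 24.1-fold lower and Cdh3 (P-cadherin) 11.9-fold lower. The keratin pair that trophectoderm makes first gave unequal differences. Krt8 was 2.75-fold lower, and Krt18 had 101885 on day 6 and 109036 on day 0 (log2 difference -0.32 ± 0.20). Krt18 and Krt7 were thus both within 2-fold, while Krt8 and Krt19 were not.

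Of 8 labyrinth genes, 7 were on the array and 5 were measured. Of these, 3 were lower by 2-fold or more and 2 were counted as within 2-fold. Gcm1, the factor that starts branching of the labyrinth, was at least 10.6-fold lower on day 6. Ovol2, a zinc finger factor, and Cebpb, a leucine zipper factor, had log2 differences of -2.94 ± 0.22 and -2.13 ± 0.20. Pparg was within 2-fold, and Cebpa, well above background on day 0 only, had a bound of -0.64 log2 units. The X-linked homeobox genes Rhox5, Rhox6 and Rhox9, which are active in extraembryonic tissue and the germ line, were 31.0-fold, 25.9-fold and 26.3-fold lower.

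Genes of the spongiotrophoblast and giant cells were mixed. Of 14 listed genes, 13 were on the array and 7 were measured. Of these, 1 was lower, 2 were higher and 4 were within 2-fold, with a median of 0.00 with dim genes at their bound. Tpbpb, Prl8a8, Prl7d1 and Pcdh12 were measured on the day 6 array alone, and Pcdh12 had a bound of 0.00 log2 units. Tpbpb, the closest relative of Tpbpa, had 223 array units on day 6 and 20.9 on day 0, at least 1.87-fold higher on day 6. Of the placental hormones of the prolactin family, Prl8a8 was at least 4.45-fold higher, and Prl7d1 had a bound of 1.59 log2 units. The giant cell hormones Prl3d1 and Prl3b1 were measured on both arrays and had log2 differences of -0.30 ± 0.27 and -0.01 ± 0.21. Flt1, a receptor for vascular endothelial growth factor that endothelial cells make as well, was 7.84-fold lower.

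**Figure D2:**
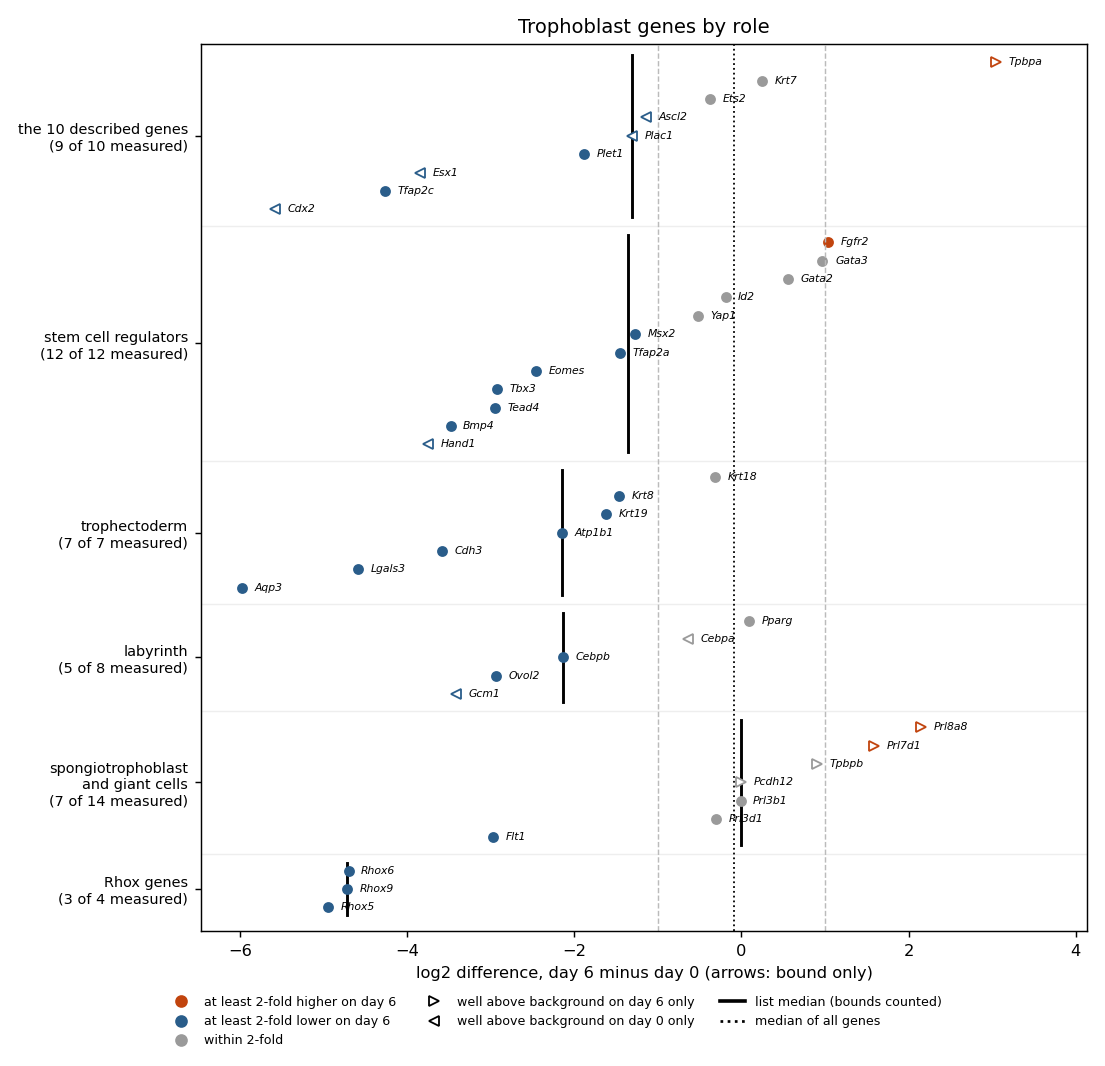
Log2 difference, day 6 minus day 0, for each measured gene of the 10 and of the 5 lists of other trophoblast genes, with arrows where only a bound is known. Black bars are list medians with dim genes at their bound, and dashed lines mark 2-fold. Tpbpa, Prl8a8, Prl7d1 and Tpbpb lie on the right as day 6 only, while trophectoderm, labyrinth and Rhox genes lie mostly on the left.

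Families around Tpbpa were looked up after these values had been seen. Of 23 prolactin family genes on the array, 9 were measured, 5 of them on day 6 only, with bounds past 2-fold: Prl2a1, Prl2b1, Prl6a1, Prl7d1 and Prl8a8. Prl6a1 had 455 array units on day 6 and 20.4 on day 0, at least 3.81-fold higher. Prl2c3 was at least 2.84-fold lower and Prl2c5 was 2.07-fold lower. None of 9 placental cathepsin genes and none of 8 pregnancy-specific glycoprotein genes was well above background on either array. The 5 prolactin family genes seen on day 6 only had 272 to 531 array units there. They passed the filter through that array alone, so their direction is a description, and the other 14 family genes were not measured. Of all measured genes, 17.8% were higher by 2-fold or more.

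Gene neighbours were taken in the order of RefSeq GRCm38.p6, with 10 on each side, and were also looked up after the values had been seen. Tpbpa lies in a cluster of cathepsin-related and placental genes. The 8 placental cathepsins that follow it were not well above background. On its other side Ctla2a and Ctla2b had log2 differences of -1.15 ± 0.21 and -1.01 ± 0.21. Further on that side Gas1 was 11.1-fold higher. Of the 20 neighbours of Tpbpa, 10 were measured, of which 4 were lower and 1 higher by 2-fold or more. Of the 20 neighbours of Ascl2, 18 were measured, of which 2 were lower and 4 higher by 2-fold or more. Ascl2 itself is imprinted, and the neighbours were taken by position alone. For both sets of neighbours, the shares of all measured genes to read against are 20.0% lower and 17.8% higher. Phlda2, which restrains placental growth, was 9.43-fold lower. Igf2, H19 and Cdkn1c were 5.68-fold, 3.60-fold and 5.74-fold higher. Plac1 and Esx1 are X-linked, and over the 520 measured X-linked genes 20.2% were lower and 21.7% higher by 2-fold or more, and the median was 0.02. On the other chromosomes 20% were lower and 17.7% higher, with a median of -0.10.

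The relatives of the factors within their own families were described from the AP-2, ETS and Cdx families. Of the AP-2 genes, Tfap2a had a log2 difference of -1.45 ± 0.23 and Tfap2e of -1.06 ± 0.20 (-2.09 from its other probe), both lower on day 6 as Tfap2c was, and Tfap2b and Tfap2d were not well above background. Of 14 measured genes of the ETS family, which holds Ets2 and Elf5, 6 were lower by 2-fold or more and 0 were higher. This count depends on the probe taken for each gene. Gabpa (-0.52), Etv6 (-0.29) and Ets1 (-0.91) were counted as within 2-fold. Other probes gave -1.93 and -2.11 for Gabpa, -1.54 for Etv6 and -1.07 to -0.95 for Ets1. Elf1, counted as lower (-1.14), had another probe at -0.62. Etv5 and Etv4, which respond to fibroblast growth factor signalling, were 63.3-fold and 12.1-fold lower, and the epithelial gene Elf3 was 11.9-fold lower.

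The other caudal homeobox genes Cdx1 and Cdx4 were dim on both arrays. Caudal genes that often accompany Cdx2 in the embryo were mixed. Of 7 measured, 3 were lower and 2 higher by 2-fold or more, and 2 were within 2-fold. Wnt3a was at least 7.87-fold, Hoxc9 at least 5.32-fold and Hoxb9 24.5-fold lower. Hoxa9 was at least 19.0-fold and Cyp26a1 3.03-fold higher. T (brachyury) had a log2 difference of -0.05 ± 0.20 and Fgf8 of -0.99 ± 0.21. Intestinal genes, the other setting of Cdx2, were not well above background in 5 of 7 cases. Of the other two, Lgr5 was 13.3-fold higher and Vil1 2.58-fold lower.

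Marker lists of other cells that make some of these genes were set beside them. The pluripotency, germ cell and epithelial lists were mostly lower on day 6. The fibroblast, surface ectoderm and visceral endoderm lists were less uniform. The pluripotency genes had a summed intensity of 43100 array units on day 6 and 1110029 on day 0. This sum and all those below are of intensities before scaling, unlike the fold values beside them. Pou5f1 was 161-fold lower, Esrrb 90.2-fold, Tfcp2l1 82.8-fold and Zfp42 72.0-fold. The 10 trophoblast genes, at 9 measured, summed to 14316 on day 6 and 37954 on day 0. Single genes carry these sums: Tfap2c alone had 20939 of the day 0 sum, and Krt7 had 7074 of the day 6 sum. The lower signals of Cdx2, Tfap2c and Esx1 thus stood beside a lower signal of every measured pluripotency gene, and their part in each other was not tested.

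Of 6 measured germ cell genes, which Tfap2c belongs with as well, 5 were lower by 2-fold or more, with sums of 6959 on day 6 and 53052 on day 0. Ddx4 was 27.4-fold, Dppa3 25.6-fold, Nanos3 11.7-fold and Prdm1 9.43-fold lower. Of 15 epithelial keratin and junction genes, 12 were lower by 2-fold or more, with sums of 210456 on day 6 and 515715 on day 0. Krt17 was 19.6-fold, Cdh1 (E-cadherin) 13.4-fold and Epcam 11.6-fold lower. Krt7 thus differed little where most of the epithelial list was lower.

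Fibroblast genes of the feeder layer were lower in 7 of 14 and higher in 2, with sums of 110953 on day 6 and 414272 on day 0. S100a4 was 159-fold, Lox at least 118-fold, Thy1 29.7-fold and Col1a1 20.0-fold lower. The other 5 genes were within 2-fold, and the higher ones, named after their values were seen, were Pdgfra (4.29-fold, dim on day 0) and Lum (3.20-fold). Whether any member's day 0 signal came from fibroblasts was not tested. In the surface ectoderm list, 3 of 6 measured genes were lower and none was higher by 2-fold, with sums of 2555 on day 6 and 21204 on day 0. Most of both sums was Grhl2, a factor of surface ectoderm and of other epithelia, with 1515 on day 6 and 19826 on day 0, 15.3-fold lower. For visceral endoderm, the extraembryonic cells that embryoid bodies can form, the defining genes Afp, Ttr, Apoa1, Apoa4 and Hnf4a were dim (not well above background) on both arrays. Its 5 measured genes summed to 2456 on day 6 and 2296 on day 0 before scaling. After scaling, their median log2 difference was -0.13. Among them Amn was 5.59-fold lower, Sox17 had a log2 difference of 1.59 ± 0.23, and 3 were within 2-fold. Neural progenitor genes summed to 348042 on day 6 and 39735 on day 0, with Fabp7 319-fold, Hes5 268-fold and Lhx2 26.4-fold higher.

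**Figure D3:**
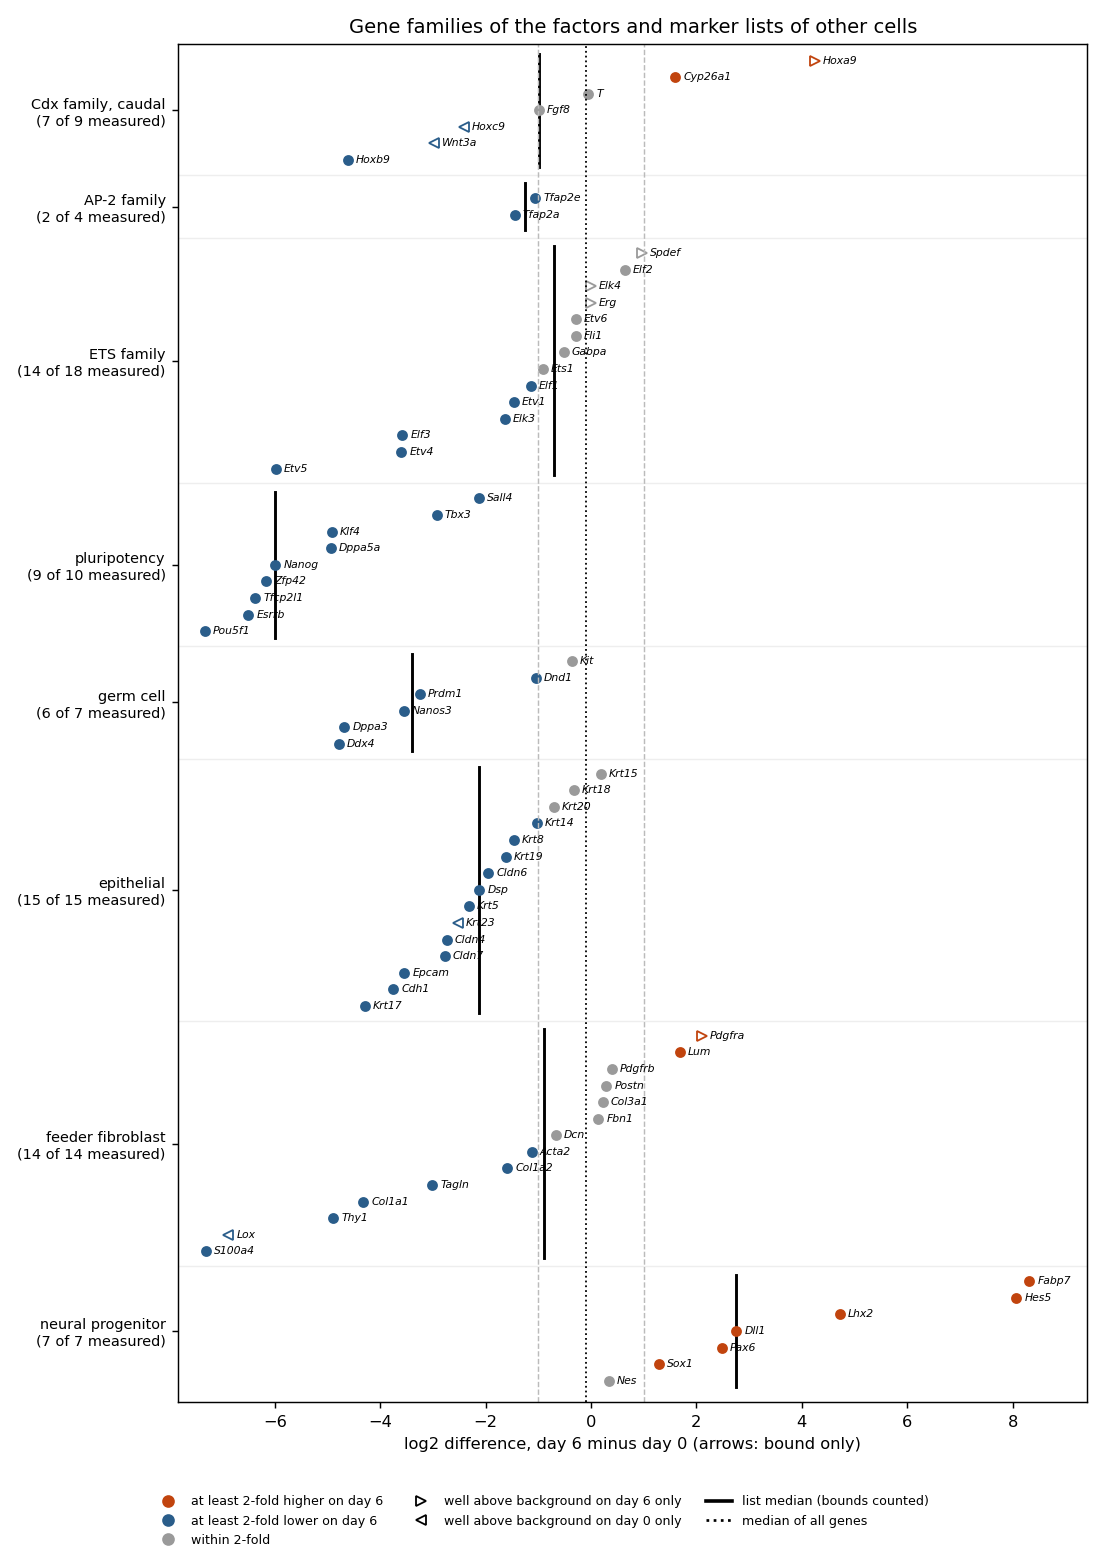
Log2 difference, day 6 minus day 0, for the measured genes of the Cdx, AP-2 and ETS families and of marker lists of other cells, with arrows where only a bound is known. Every measured pluripotency gene lies left of the dashed 2-fold line, and 6 of 7 neural progenitor genes lie right of the opposite line.

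Promoter sequences from RefSeq (GRCm38.p6) were given for 9 of the 10 members, all but Tfap2c, in 11 windows from 250 bases before to 50 bases after a start site. They were searched on both strands for 3 motifs chosen after the values had been seen. The octamer ATGCAAAT, the core bound by POU factors such as Pou5f1, was found in 3 windows, those of Cdx2, Plet1 and Tpbpa, and in 1.74% of all 32851 windows of the same length. It starts 147 bases before the start site of Cdx2 and 190 before that of Tpbpa on the gene's own strand, and 73 before that of Plet1 on the opposite strand. The AP-2 motif GCCNNNGGC was found in 3 windows, of Cdx2, Krt7 and Tpbpa, and in 16.6% of all. TATAAA was found in the Plet1 window only and in 13.6% of all. The octamer thus occurs in front of members with opposite differences, and a match in these letters is a description, not a bound site. The 3 windows that hold it are shown 5′ to 3′ along the gene, with the octamer in capitals.
Cdx2, chr5:147307200-147307499, minus strand: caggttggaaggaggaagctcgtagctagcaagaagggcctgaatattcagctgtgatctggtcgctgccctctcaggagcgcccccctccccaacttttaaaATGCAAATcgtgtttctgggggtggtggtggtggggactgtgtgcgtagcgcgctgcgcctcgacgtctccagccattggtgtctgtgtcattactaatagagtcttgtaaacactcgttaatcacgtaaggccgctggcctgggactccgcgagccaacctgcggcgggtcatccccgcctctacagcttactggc
Plet1, chr9:50494275-50494574, plus strand: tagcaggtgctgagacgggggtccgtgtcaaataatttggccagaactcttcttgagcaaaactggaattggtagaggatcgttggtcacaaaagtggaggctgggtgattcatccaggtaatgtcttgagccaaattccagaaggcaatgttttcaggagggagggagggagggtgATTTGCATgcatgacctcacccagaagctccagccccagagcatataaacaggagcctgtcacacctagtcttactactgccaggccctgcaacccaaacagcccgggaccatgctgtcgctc
Tpbpa, chr13:60941887-60942186, minus strand: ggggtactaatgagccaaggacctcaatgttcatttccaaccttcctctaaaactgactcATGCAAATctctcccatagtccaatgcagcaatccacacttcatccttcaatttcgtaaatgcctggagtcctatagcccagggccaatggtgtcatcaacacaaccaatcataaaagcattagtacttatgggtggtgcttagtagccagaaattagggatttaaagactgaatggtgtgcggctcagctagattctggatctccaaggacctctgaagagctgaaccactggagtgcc

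The windows also differed in their number of CpG pairs, the sites of DNA methylation. Ets2 had 30, Esx1 24, Ascl2 23, Krt7 21 and Cdx2 18, Plet1 had 5 and Tpbpa had 2, and the median of all windows was 7. The windows of Elf5 had 3 and 10, and those of Plac1 had 6 and 3. Members with many and with few CpG pairs were both among those lower on day 6.

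**Figure D4:**
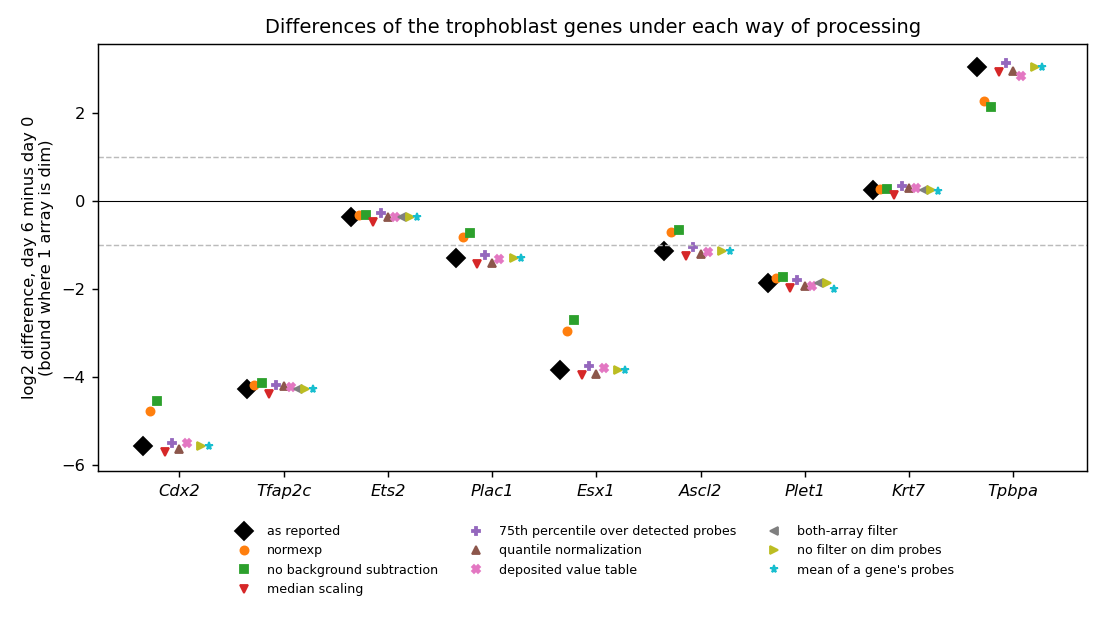
Log2 difference, day 6 minus day 0, of each of the 9 measured genes under each way of processing, with the bound where 1 array is dim and dashed lines at 2-fold. Tfap2c, Ets2, Plet1 and Krt7, measured on both arrays, hardly move, while Plac1 and Ascl2 come inside the dashed line with normexp and with no background subtraction.

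The plot of differences by way of processing sets the reported value beside the others for each gene. Tfap2c lay between -4.38 and -4.15 log2 units, Plet1 between -2.01 and -1.73, Ets2 between -0.49 and -0.29 and Krt7 between 0.13 and 0.33. Taken as bounds, Cdx2 lay between -5.70 and -4.56, Esx1 between -3.96 and -2.72, and Tpbpa between 2.12 and 3.12. A bound cannot change sign by the way it is set. The members' differences taken without a bound kept their direction under every setting that gave one.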

How the data were processed

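Total RNA of day 6 embryoid bodies and of day 0 ES cells was labelled with Cy3 and hybridised to 1 array each, per the labels. Feature Extraction 9.5.3.1 read 1 channel of each array, of design 014868, per the file headers. Both arrays lay on the same slide in the same scan, so array position and day cannot be told apart. The deposited scanner files hold spot intensities that the software had detrended and corrected for background, with a surrogate value for spots not above background and an error whose multiplicative part was set to 0.1. A second table deposited by the authors holds log2 values with a median of 8.53 and equal distributions on both arrays, made by steps not stated in the sources used here.

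Controls and spots marked as outliers (216 on day 6, 186 on day 0) were dropped. Log2 intensities were averaged per probe and taken relative to the array's 75th percentile. Of 41174 gene probes, 32719 were named through a RefSeq table of GRCm38.p6, by accession (22951), current symbol (6659) or older symbol (3109). A probe was used where the software marked it well above background on at least 1 array. A gene took the value of whichever such probe had the highest mean log2 intensity over both arrays. A bound sets the bright array against the dim array's own value or its lowest signal well above background, whichever is higher. All members and the listed trophoblast genes could be named, with every measured gene of the AP-2 and Cdx lists, ETS genes at least 4-fold apart and up to 4 genes of each other list with the largest differences. Prolactin and cathepsin genes, gene neighbours, promoter motifs and ETS genes whose probes disagree were added after their values were seen. The members and lists were chosen with earlier results of these data known, and some genes of the lists are not reported here and enter no count of a list. With 1 array a day no test was run. Software was Python 3.11.15, pandas 2.3.3 and limma 3.58.1 in R 4.3.3 for normexp with an offset of 50. The counting of calls was tested on simulated data, for probes well above background on both arrays only. The bound and the choice of 1 probe per gene were not part of that test.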

Additional observations from a re-analysis of the deposited data

How the results depend on the processing

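With 1 array a day, no replicate could be left out and the slide could not be fitted as a block, and those alternatives were not run. No paired analysis was possible because each day had 1 array and the result comes from no test. Under 11 other settings, no count, median or member difference changed direction. The members' median of -1.60, or -1.31 with dim members at their bound, stood at -0.83 (normexp), -0.81 (no background subtraction) and -1.13 (only probes measured on both arrays, which left 4 members). That filter left 2 members lower instead of 6 and 0 higher instead of 1, and 1 other trophoblast gene higher instead of 3. At 4-fold, 3 members were lower and 1 other trophoblast gene was higher. The filter and the 4-fold threshold change these counts by construction. For the background settings the cause was not tested. With normexp and with no background subtraction, 4 members were lower and 2 other trophoblast genes were higher. Including these, another 42 counts and medians moved by at most 1.5 times or by less than the software error. Among single members, 13 values moved and 72 did not. Many of the 72 could not move. Dropping the filter on dim probes repeats each member's main value, and the mean of a gene's probes repeats that of members with 1 probe. The both-array filter and the bounds repeat that of members measured on both arrays. Plac1 and Ascl2 stayed past 2-fold in 7 of 9 settings each. Those 7 include no filter, the mean of a gene's probes and dim members at their bound, which repeat the main value for these genes by construction. Both were under 2-fold with normexp and with no background subtraction. Median scaling set the median of all genes at -0.21 and the percentile over detected probes at -0.01, against -0.09. Signal over background limits Cdx2, Esx1, Plac1, Ascl2 and Tpbpa, which were well above background on 1 array only, and the number of arrays limits every value.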
